A study of Mus musculus with 6 samples.

Results

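The genes described here are 10 activation-induced transcription factor genes, namely the AP-1 genes *Fos*, *Fosb*, *Fosl2*, *Jun*, *Junb* and *Jund*, the Egr genes *Egr1*, *Egr2* and *Egr3*, and the nuclear receptor gene *Nr4a1*. They were taken by symbol from the 46983 gene IDs of the deposited table, and all 10 were found. The table holds bulk RNA-seq of splenic B cells kept for 3 days under IgA class switching conditions, with 3 WT and 3 *Hif1a* KO libraries. In the *Hif1a* KO mice, Cre driven by *Mb1*, a gene active from early B-cell stages onwards, removes a floxed part of *Hif1a*, the gene of the oxygen-regulated subunit of HIF-1. WT mice were littermates that carried either Cre with a single floxed allele or floxed alleles without Cre, and which of these gave which library is not labelled. All mice were on a C57BL/6 background. LPS was added to all cultures at 5 µg/ml, and the cytokines TGF-β, IL-5 and BAFF at 10 ng/ml. According to the study's methods the cells were sorted follicular B cells, LPS or antibodies to IgM and CD40 served as the stimulus, and the labels of these libraries name LPS. The labels give no age and do not state whether the libraries came from separate mice, so the p-values measure the spread between these libraries.

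AP-1 is a dimer of a Jun protein with a Fos protein or with another Jun, Atf or Batf protein. Its genes and those of the Egr zinc-finger factors and Nr4a orphan receptors include many immediate early genes, which antigen receptor, CD40 or Toll-like receptor signals switch on through MAP kinases within minutes, without new protein synthesis. CREB and serum response factor sites in the promoters of several of them, *Fos* among them, take part in this. The mRNAs usually decay fast, and in B cells *Egr1* and *Nr4a1* are widely used as reporters of recent antigen receptor signaling. By day 3 the cells are long past the first wave of induction, and the levels below are those of cells in continued culture.

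Library depth, the denominator recovered from the values, was 25.0 to 37.2 M reads, and 99.9% of it was recovered as reads on genes. *Hif1a* itself was at 36.5, 49.8 and 45.8 FPKM in the WT libraries and at 46.5, 45.6 and 52.8 FPKM in the KO libraries. FPKM is the number of fragments, called reads here, per kilobase of transcript and per M of this denominator. It covers the whole gene including exons outside the floxed part, so this level does not check the deletion. The B-cell marker *Cd79a* (498.0 to 1202.9 FPKM) was abundant in every library. Library WT replicate 1 lay nearer to the mean of the KO libraries than to the mean of the other 2 WT libraries for 10315 of the 13312 genes tested (77.5%), and for 7 of the 9 members tested (77.8%). The fold changes and the main family shares are therefore given with and without this library.

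RefSeq promoter windows (GRCm38.p6) were matched for 8 members, 12 windows in all, and *Egr1* and *Egr3* had none. The 250 bases before a start site were read, and those of *Fos*, *Nr4a1* and *Egr2* are shown because these genes had the same 2 highest libraries, as described further below, with *Jun* beside them because it did not. Capitals mark CRE half-sites (TGACG on either strand, reading CGTCA on the other), to which CREB and Atf proteins bind, and in *Egr2* also the CArG box, the site of serum response factor.

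Fos, chr12:85473640-85473889, plus strand: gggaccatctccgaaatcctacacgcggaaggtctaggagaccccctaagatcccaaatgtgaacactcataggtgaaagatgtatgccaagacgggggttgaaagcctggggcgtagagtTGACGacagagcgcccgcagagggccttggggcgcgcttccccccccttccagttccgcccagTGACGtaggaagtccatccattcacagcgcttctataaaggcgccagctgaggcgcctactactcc
Nr4a1, chr15:101266596-101266845, plus strand: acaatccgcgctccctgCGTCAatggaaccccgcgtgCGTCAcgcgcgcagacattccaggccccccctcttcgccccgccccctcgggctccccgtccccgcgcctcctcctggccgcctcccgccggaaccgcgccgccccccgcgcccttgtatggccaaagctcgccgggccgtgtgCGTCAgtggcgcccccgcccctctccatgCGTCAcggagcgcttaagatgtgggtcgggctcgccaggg
Egr2, chr10:67537619-67537868, plus strand: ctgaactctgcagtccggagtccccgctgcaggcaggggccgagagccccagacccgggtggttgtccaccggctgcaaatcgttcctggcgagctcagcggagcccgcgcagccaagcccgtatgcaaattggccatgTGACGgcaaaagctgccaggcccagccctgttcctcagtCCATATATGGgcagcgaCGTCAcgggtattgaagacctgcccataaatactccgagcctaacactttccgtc
Jun, chr4:95052223-95052472, minus strand: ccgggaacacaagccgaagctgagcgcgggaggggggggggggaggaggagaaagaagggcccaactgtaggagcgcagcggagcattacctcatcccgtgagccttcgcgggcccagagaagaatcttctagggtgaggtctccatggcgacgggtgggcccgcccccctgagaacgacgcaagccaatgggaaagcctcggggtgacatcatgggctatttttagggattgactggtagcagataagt

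The *Fos* window held 2 half-sites, with first bases 129 and 66 bases before the start site. That of *Nr4a1* held 4. The *Egr2* window shown, which lies before one of its downstream start sites, held 2 half-sites and a CArG box, and that of *Jun* held neither. The *Jun* window does hold TGACATCA, which differs from the complete CRE only by an A in place of a G and was not searched. A link of such sites to the library pattern was not tested. *Junb* and *Fosb* also held a half-site but had other highest libraries, WT 2 and WT 3 for *Junb* and WT 2 and WT 1 for *Fosb*. Among the members, 5 of 8 (*Fos*, *Fosb*, *Junb*, *Egr2* and *Nr4a1*) had a half-site in at least 1 window, while 19.8% of the 27025 genes with a window did. A CArG box was found in these 250 bases before 1 member, *Egr2*, and before 1.62% of all genes. Bases farther upstream were not read, so the search does not show that *Fos* or another member lacks this site. None of the 8 members carried the complete CRE (TGACGTCA, which contains the half-site on both strands, in 1.77% of all genes) or the AP-1 site TGACTCA (5.16% of all genes) in these 250 bases. The core of the hypoxia response element was searched as ACGTG, found before *Jund* and *Egr2* (18.5% of all genes), and as GCGTG, found before *Fos*, *Junb* and *Nr4a1* (30.9% of all genes). These cores can share bases with a half-site. The *Jund* window ends at base 70697738, upstream of the gene start at 70698949 given below. RefSeq and GENCODE vM21 place this start differently. A match is a run of letters in the reference and says nothing of binding in these cells.

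The members spanned a wide range of abundance, from genes near 100 FPKM to genes close to 0. In falling order of the mean over the 6 libraries they were *Junb* (124.9 FPKM), *Jund* (80.5), *Egr1* (54.8), *Egr3* (42.5), *Egr2* (34.7), *Nr4a1* (16.2), *Jun* (8.56), *Fos* (2.37), *Fosl2* (0.615) and *Fosb* (0.0998). The ranges over libraries overlapped between the neighbours *Jund* and *Egr1*, *Egr1* and *Egr3*, and *Egr3* and *Egr2*, and did not overlap between the other neighbours. This order depends on the length behind each FPKM value, which the sources used here do not give. The length at which the values become whole reads was 0.321 times the summed exon length of GENCODE vM21 for *Egr3* and 1.725 times for *Jund*. For *Jund* this recovered length, 2878 bases, equals the stretch from its RefSeq start to its gene end. With the summed exon lengths in place of the recovered ones, *Jund* (138.8) stood above *Junb* (99.9), and *Egr3* (13.6) fell below *Egr2* (16.0). For *Jund* that setting uses 1668 bases. Comparisons of 1 gene between libraries are not touched by this.

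**Figure D1:**
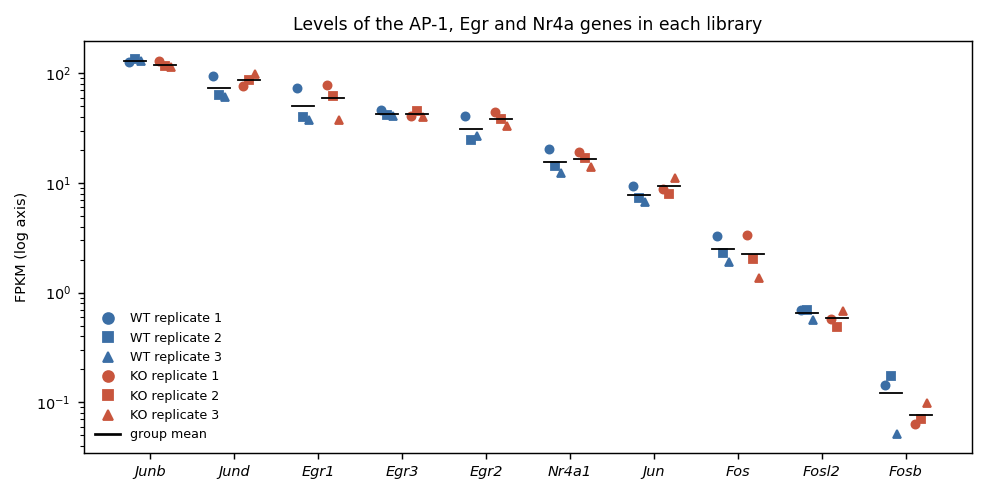
FPKM (log axis) of the 10 members, in falling order of their mean, in the 3 WT (blue) and 3 Hif1a KO (red) libraries, with the marker shape giving the replicate number and the black line the group mean. WT and KO points overlap for every member, and Egr1 runs from 37.5 to 78.7 FPKM while Egr3 stays between 40.3 and 46.5.

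No member passed the test between *Hif1a* KO and WT cells. With all 6 libraries, 0 of the 9 members tested had an adjusted p under 0.05, beside 0 of all 13312 genes (0%), where 929 genes had an unadjusted p under 0.05 and the smallest adjusted p was 0.321. None of the 9 members had an unadjusted p under 0.05. The groups overlapped for all 10 members, while they did not overlap for 10.1% of all genes tested. Of the 9 members, 5 had a higher and 4 a lower mean in KO, beside 5604 higher and 7708 lower over all 13312 genes. The members' median log2 fold change was 0.11, against -0.03 over all genes tested. This median rested on single libraries, with 0.01 without KO 1 and -0.04 without WT 3. Fold changes here are KO minus WT on the scale of log2(FPKM + 1), which understates the change of the low genes *Fos* and *Fosl2*, and intervals are 95% confidence intervals of the fit.

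In the Jun family, *Junb* and *Jund* supplied nearly all of the mRNA. *Junb*, on chr8:84974484-84978718, encodes a Jun protein that pairs with Batf in lymphocytes. It was at 127.8, 133.9 and 128.6 FPKM in WT and at 128.4, 117.2 and 113.7 FPKM in KO. The KO 1 library lay within the WT range and the other KO libraries lay below it. KO minus WT came to -0.12 ± 0.07 on the log2 scale (SE, adjusted p = 0.626), with an interval from -0.28 to 0.04, the narrowest among the members. *Junb* overlaps the 3′ part of the peroxiredoxin gene *Prdx2* on the opposite strand by 351 bases, and *Prdx2* was expressed at 93.2 to 102.6 FPKM. Whether strand was used in counting is not stated, and reads from the shared bases cannot be told apart.

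*Jund*, on chr8:70698949-70700616, is the Jun gene that many resting cells express constitutively. It was at 95.4, 63.7 and 61.4 FPKM in WT and at 76.7, 86.2 and 99.4 FPKM in KO. WT 1 stood with the KO libraries, above WT 2 and WT 3. On the log2 scale KO exceeded WT by 0.27 ± 0.18 (SE, adjusted p = 0.653, interval -0.16 to 0.70). *Jun*, on chr4:95049034-95052222, the founding member, whose protein is a substrate of the JNK kinases, was about an order of magnitude less abundant. It was at 9.35, 7.36 and 6.64 FPKM in WT and at 8.89, 7.90 and 11.2 FPKM in KO. Its groups overlapped through WT 1, for a log2 fold change of 0.23 ± 0.16 (SE, adjusted p = 0.653, interval -0.14 to 0.61). The antisense genes on these loci were low, with *Junos* (opposite *Jun*) at 0.149 to 0.677 FPKM and *Gm11175* (opposite *Jund*) listed at 0 in every library.

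The Fos genes were the rarest members, so that Jun mRNA exceeded Fos mRNA by far in every library. The summed level of *Fos*, *Fosb*, *Fosl1* and *Fosl2* was 2.53 to 4.57 FPKM, against 196.7 to 232.5 FPKM for the 3 Jun genes. *Fos*, on chr12:85473890-85477273, the classical immediate early gene, was at 3.30, 2.31 and 1.90 FPKM in WT and at 3.37, 2.03 and 1.35 FPKM in KO. The highest and the lowest values were both KO libraries. These values rest on 44 to 134 reads at the recovered length, or on 22 to 67 reads if the length was 546 bases, which gives whole reads as well. KO minus WT was -0.14 ± 0.25 on the log2 scale (SE, adjusted p = 0.851, interval -0.73 to 0.46).

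*Fosl2*, on chr5:32135801-32157842, encodes Fra-2, a Fos protein without the strong activation domain of Fos. It was at 0.688, 0.695 and 0.562 FPKM in WT and at 0.573, 0.484 and 0.686 FPKM in KO, from 56 to 100 reads. The groups overlapped, at a log2 fold change of -0.06 ± 0.12 (SE, adjusted p = 0.858). *Fosb*, on chr7:19302696-19310051, was close to the limit of detection, with 0.143, 0.172 and 0.0513 FPKM in WT and 0.0639, 0.0698 and 0.0982 FPKM in KO. These are 5 to 20 reads per library. It was not tested, since its mean was below 0.5 FPKM.

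The Egr genes were abundant and differed among themselves in how much they varied. *Egr1*, on chromosome 18, an early target of MAP kinase signaling, was at 73.5, 39.8 and 37.5 FPKM in WT and at 78.7, 61.6 and 37.8 FPKM in KO. Its highest WT library had 1.96 times the level of the lowest, and its highest KO library 2.08 times, while the KO mean was 1.18 times the WT mean. Its fold change on the log2 scale, 0.24 ± 0.33 (SE, adjusted p = 0.798), had an interval of -0.55 to 1.03, which spans folds from 0.683 to 2.04. A change within that interval was thus not excluded for *Egr1* by these libraries.

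*Egr2*, on chr10:67535475-67542188, which with *Egr3* restrains lymphocyte activation and sustains proliferation, was at 40.7, 24.5 and 27.1 FPKM in WT and at 44.0, 38.2 and 33.4 FPKM in KO. The KO libraries were all above WT 2 and WT 3, and WT 1 lay among them. Its log2 fold change, 0.34 ± 0.19 (SE, adjusted p = 0.627, interval -0.12 to 0.80), was the largest of the 9. *Egr3*, on chr14:70077203-70082614, was the steadiest member, at 46.5, 41.3 and 40.5 FPKM in WT and 40.7, 45.6 and 40.3 FPKM in KO. The highest library was 1.15 times the lowest. KO minus WT was -0.02 ± 0.08 on the log2 scale (SE, adjusted p = 0.941), with an interval of the fold from 0.862 to 1.13, and its sign turned under median-ratio scaling (0.01).

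*Nr4a1*, on chr15:101254269-101274795, encodes Nur77, a ligand-independent nuclear receptor that is induced by antigen receptor signaling and limits B-cell responses. It was at 20.4, 14.2 and 12.3 FPKM in WT and at 19.1, 17.0 and 13.9 FPKM in KO. All KO libraries lay within the WT range. KO exceeded WT by 0.11 ± 0.20 on the log2 scale (SE, adjusted p = 0.852, interval -0.36 to 0.57).

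The size and in part the direction of these differences depended on single libraries. *Egr1* was at 0.01 without KO 1 and at 0.53 without KO 3 on the log2 scale. The number of genes called changed most with WT replicate 1. Without it, 1251 of the 13312 genes (9.40%) had an adjusted p under 0.05 in the same fit, 485 higher and 766 lower in KO, and 1 of the 9 members was among them, a share close to that of all genes. This member was *Egr2*, with a log2 fold change of 0.56 ± 0.12 (SE, adjusted p = 0.0439), or 1.47-fold, and an interval of the fold from 1.20 to 1.80. *Jund* followed at 0.47 ± 0.11 (SE, adjusted p = 0.0518) and *Jun* at 0.36 ± 0.14 (SE, adjusted p = 0.163). *Egr1* was at 0.54 ± 0.28 (SE, adjusted p = 0.255), *Nr4a1* at 0.30 ± 0.14 (SE, adjusted p = 0.213), and the median of the 9 members at 0.30, against -0.05 over all genes. The log2 fold changes of the others were 0.02 for *Fos*, -0.04 for *Fosl2*, -0.13 for *Junb* and 0.04 for *Egr3*. WT 1 was singled out for its nearness to the KO libraries, which was seen in these same data. Leaving out such a library widens the difference between the groups by the choice itself. Adjusted p-values without WT 1, here and below, are therefore descriptive and do not count as support. Leaving out any other single library gave 0 or 1 genes called.

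With 2 WT libraries left, the groups did not overlap for *Jun*, *Jund* and *Egr2*, higher in KO (3 of 9 members, 33.3%, against 18.4% of all genes), nor for *Junb*, lower in KO (1 of 9, 11.1%, against 32.0% of all genes). In the opposite arrangement, chosen after seeing the data, WT 1 served as the only WT library and was assumed to vary like the KO libraries. The log2 fold change was then below 0 for all 9 members, with -0.09 for *Egr2*, -0.13 for *Jund* and -0.37 for *Egr1*, each with an adjusted p of 1.0, and 3 genes passed the test in the whole table.

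**Figure D2:**
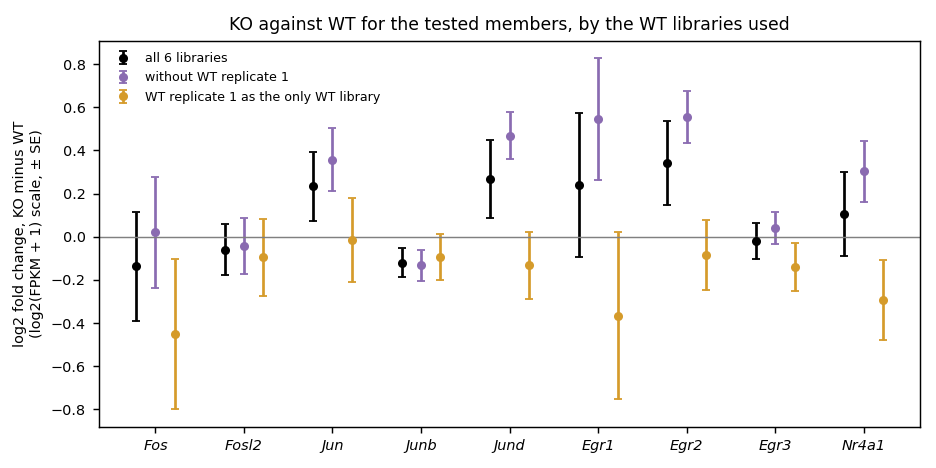
Log2 fold change of Hif1a KO minus WT on the log2(FPKM + 1) scale for the 9 tested members, with bars giving the SE, from all 6 libraries (black), without WT replicate 1 (purple) and with WT replicate 1 as the only WT library (orange). Egr2 stands at 0.34, 0.56 and -0.09 in these 3 fits, and Junb lies below 0 in each.

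WT 2 and WT 3, the libraries that then make up the WT group, also differed from the other 4 in markers of other cells. The summed level of the 15 macrophage and monocyte markers was 556.5 and 486.0 FPKM in WT 2 and WT 3, 358.1 FPKM in WT 1 and 335.9 to 396.3 FPKM in KO, led by *Ctss* and *Adgre1*, which B cells can also express, and no marker of the list was at 0 in every library. *Lyz2*, chosen after its values were seen, was at 58.3 and 26.2 FPKM in WT 2 and WT 3, at 6.18 FPKM in WT 1 and at 0.60 to 3.70 FPKM in KO. The 6 plasma cell markers, led by *Mzb1* and *Xbp1*, summed to 834.4 and 791.4 FPKM in WT 2 and WT 3, to 1281.0 FPKM in WT 1 and to 902.4 to 1580.5 FPKM in KO. The 7 erythroid markers, led by *Hbb-bs* and *Hbb-bt*, summed to 16.5 and 13.6 FPKM against 2.96 to 4.84 FPKM in the other 4 libraries. The 13 mitochondrially encoded genes summed to 7867.6 and 8659.4 FPKM against 9531.5 to 12449.9 FPKM. The 8 neutrophil markers, led by *S100a9* and *S100a8*, summed to 37.5 FPKM in WT 1 and to at most 0.566 FPKM elsewhere, and 5 of them were listed at 0 in every KO library. The part of these differences in the values of the members was not tested, and in bulk RNA a change in the share of a cell type and a change in its RNA per cell cannot be told apart.

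Of the other marker lists, those of dendritic cells, T cells, and basophils and mast cells also set WT 2 and WT 3 apart from the other 4 libraries. The B-cell marker *Cd79b* was at 409.9 to 734.1 FPKM. The 9 dendritic cell markers summed to 119.3 and 116.8 FPKM in WT 2 and WT 3 and to 76.1 to 102.7 FPKM elsewhere, most of it *Ccr7*, which B cells also express, with *Flt3* next. The 10 T-cell markers summed to 100.7 and 94.6 FPKM in WT 2 and WT 3 and to 137.0 to 143.3 FPKM elsewhere. Nearly all of this sum was *Lck*, with *Cd28* next, while 8 of the 10 stayed below 1 FPKM in every library. The sum thus describes *Lck* rather than T cells. The 7 stromal and endothelial markers were almost all *Pecam1*, followed by *Cdh5*, at a sum of 76.7 to 98.4 FPKM. The 8 NK and innate lymphoid markers, led by *Prf1* and *Il7r*, reached 3.43 FPKM and had *Gzmb* at 0 in every library. The 6 basophil and mast cell markers, led by *Kit* and *Ms4a2*, summed to 6.80 and 6.18 FPKM in WT 2 and WT 3 and to 2.23 to 3.39 FPKM elsewhere. All but *Kit*, 5 of the 6, stayed below 1 FPKM in every library, with *Cpa3* at 0 throughout.

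The members fell into separate patterns across the 6 libraries that did not follow the genotype. *Fos*, *Egr1*, *Egr2* and *Nr4a1* all had WT 1 and KO 1 as their 2 highest libraries. This pattern was noticed after the values were seen. It held for 4 of 9 members, for 4 of the 28 other immediate early genes tested (*Ier2*, *Dusp2*, *Zfp36* and *Zfp36l2*), and for 424 of the 13312 genes tested (3.19%). Within KO, KO 3 was the lowest library for all 4, by as much as 2.50 times for *Fos* (3.37 against 1.35 FPKM). *Jun* and *Jund* had KO 3 as their highest library instead, followed by WT 1. *Junb* was highest in WT 2 and WT 3, and *Egr3* and *Fosl2* varied little.

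**Figure D3:**
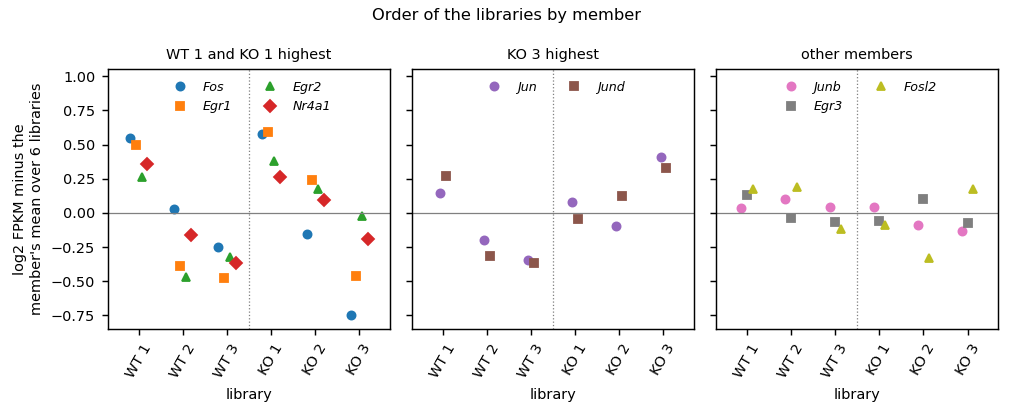
Log2 FPKM of 9 members in each of the 3 WT and 3 Hif1a KO libraries (x axis), centred on the member's own mean over the 6 libraries, with a dotted line between the groups. Fos, Egr1, Egr2 and Nr4a1 (left) are highest in WT 1 and KO 1, Jun and Jund (middle) in KO 3, and Junb, Egr3 and Fosl2 (right) vary least.

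The composition of the families was compared by an exact permutation test over libraries, which with 3 against 3 cannot give a two-sided p below 0.1, so that no share could pass 0.05. Of the summed Jun FPKM, *Junb* made up 61.9% ± 6.02 (SD, n = 3) in WT and 55.4% ± 4.65 in KO, and *Jund* 34.4% ± 5.71 and 40.3% ± 4.25 (exact p = 0.3 for both, adjusted p = 0.6 over 14 shares). WT 2 and WT 3 had the lowest *Jund* shares, 31.1% and 31.2%, while WT 1 at 41.0% lay within the KO range of 35.9% to 44.3%. Without WT 1 the difference of KO minus WT went from -6.52 to -9.99 percentage points for *Junb* and from 5.88 to 9.18 points for *Jund*. With summed exon lengths in place of the recovered ones, *Jund* would supply 49.0% to 62.7% of the Jun mRNA and *Junb* 33.2% to 47.8%. For *Jund* that setting uses 1668 bases, fewer than the recovered 2878, so a lead of *Jund* rests on this shorter length. *Fos* was the main Fos gene in each library, with 53.4% to 77.3%.

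*Egr1* held 33.9% to 48.2% of the Egr total, which was itself highest in WT 1 (160.7 FPKM) and KO 1 (163.4 FPKM) and ran from 105.2 to 145.4 FPKM elsewhere. The *Egr2* share was 24.8% ± 1.39 (SD, n = 3) in WT and 27.7% ± 1.98 in KO, and its groups did not overlap (25.3%, 23.2% and 25.8% against 27.0%, 26.3% and 30.0%). This gave the smallest exact p the design allows, 0.1 (permutation, adjusted p = 0.6). The difference in the *Egr2* share was 2.97 points, and 3.26 points without WT 1, while that of *Egr3* went from -4.73 to -8.03 points. *Nr4a1* supplied 70.6% to 83.8% of the Nr4a total, with *Nr4a3* next at 15.0% to 23.7%, and the difference in the *Nr4a1* share was 5.32 points with WT 1 and 8.91 points without it.

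**Figure D4:**
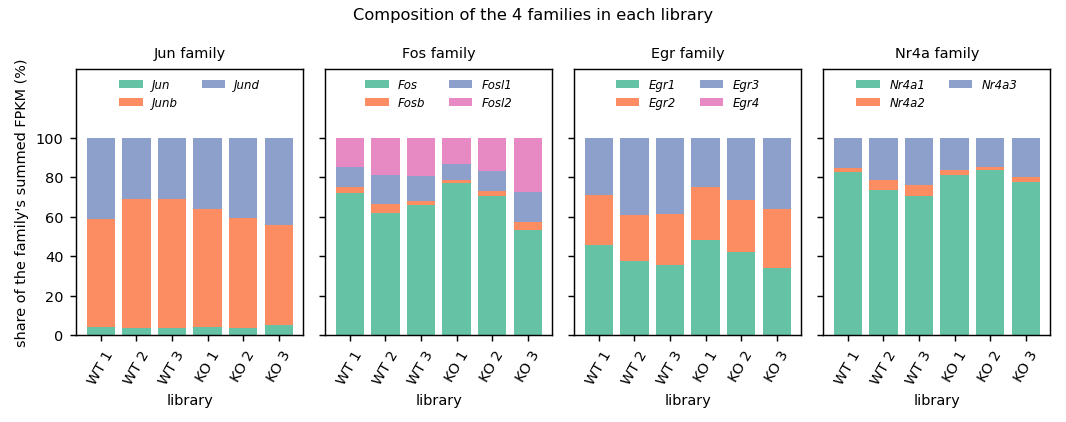
Share of each gene in the summed FPKM of its family (%, stacked bars) in each of the 3 WT and 3 Hif1a KO libraries, for the Jun, Fos, Egr and Nr4a families. Junb takes 50.7% to 65.4% and Jun 3.38% to 5.00% of the Jun total, and Nr4a1 at least 70.6% of the Nr4a total.

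Of the dimer partners and relatives of the AP-1 members, none passed the test with all 6 libraries. Of 13 other AP-1 family bZIP genes, 10 were tested, 3 with a higher and 7 with a lower mean in KO (median log2 fold change -0.07, against -0.03 over all genes). *Batf*, a Jun partner needed for class switching, was the most abundant at 128.7 to 163.7 FPKM, followed by *Atf2* (26.8 to 30.4 FPKM) and *Atf7* (23.3 to 28.5 FPKM), whose proteins bind CRE sites. The smallest p-values belonged to *Mafg*, *Atf3* and *Jdp2*, with adjusted p = 0.626 for each. *Jdp2*, a repressor of AP-1, was at 5.26, 12 and 10.8 FPKM in WT and at 5.28, 4.62 and 6.57 FPKM in KO. *Atf3*, a stress-induced repressor, was at 1.06, 3.85 and 3.17 FPKM in WT and at 0.789, 1.17 and 0.934 FPKM in KO. For both, WT 1 lay with the KO libraries, and without WT 1 the 3 genes of this list that passed the test were these and *Mafg*, all lower in KO (log2 fold changes -0.94, -1.20 and -0.47, adjusted p = 0.0173, 0.00814 and 0.0174). These are 3 of 10 tested, 30.0%, beside 9.40% of all genes in that fit.

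Among the relatives and corepressors of the Egr and Nr4a genes, 4 of 5 were tested, 2 with a higher and 2 with a lower mean in KO (median -0.02). *Nab1* (43.7 to 52.1 FPKM) and *Nab2* (14.1 to 20.9 FPKM), which bind Egr proteins and repress their activity, were the highest of this list, with log2 fold changes of 0.13 ± 0.08 and 0.21 ± 0.15 (SE). Without WT 1, *Nab2* was the 1 gene of this list past the test (0.37, adjusted p = 0.045), higher in KO. This is 1 of 4 tested, 25.0%, beside 9.40% of all genes. With all 6 libraries its adjusted p was 0.658, and WT 1 (20.9 FPKM) lay above every KO library. *Nab2* is a known Egr target, and whether its level follows that of *Egr2* was not tested. *Nr4a3* was at 3.05 to 4.13 FPKM and *Nr4a2* at 0.241 to 1.03 FPKM, and neither passed the test in either fit.

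Of 30 other immediate early genes, 28 were tested, 15 with a higher and 13 with a lower mean in KO (median 0.01), and 0 passed. The most abundant were the antiproliferative genes *Btg1* (171.9 to 273.3 FPKM) and *Btg2* (85.2 to 160.6 FPKM) and the activation marker *Cd83* (166.2 to 204.2 FPKM). The smallest p-values were those of *Dusp1*, *Rgs2* and *Plk2* (adjusted p = 0.626 for each). *Rgs2*, a regulator of G protein signaling, was at 95.8, 49.6 and 50.6 FPKM in WT and at 95.9, 101.8 and 110.2 FPKM in KO, so that the KO libraries lay just above WT 1 and well above the other WT libraries. *Dusp1*, a phosphatase of MAP kinases, was at 3.06, 4.22 and 3.46 FPKM in WT and at 2.61, 2.60 and 2.09 FPKM in KO. Without WT 1, 10 of the 28 passed (35.7%, beside 9.40% of all genes), 5 higher (*Rgs2* at 1.02, adjusted p = 0.0025, *Btg1* at 0.48, adjusted p = 0.0305, and 3 others) and 5 lower (*Plk2* at -0.95, adjusted p = 0.00799, and 4 others).

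None of the factors and kinases that act on these promoters passed the test with all 6 libraries. All 15 genes of the list of SRF, TCF, CREB and Mef2 factors were tested, 10 with a higher and 5 with a lower mean in KO (median 0.03). *Mef2c*, which B cells need for proliferation after antigen receptor signaling, was at 147.7 to 153.1 FPKM in WT and at 157.8 to 176.5 FPKM in KO, without overlap (log2 fold change 0.16 ± 0.06, SE, adjusted p = 0.626). The next most abundant were *Atf1* (104.9 to 113.7 FPKM) and *Mef2d* (86.5 to 106.1 FPKM), and *Mef2a* and *Elk3* had the next smallest p-values (adjusted p = 0.626 for both). In the list of MAP kinase cascade, calcineurin and NFAT genes, 16 of 30 had a higher and 14 a lower mean in KO (median 0.01). The kinase gene *Map3k1* and the calcineurin gene *Ppp3ca* were among the most abundant, with log2 fold changes of 0.18 ± 0.11 and 0.08 ± 0.06 (SE). *Rps6ka4*, *Map3k8* and *Map2k3* had the smallest p-values, with adjusted p = 0.626 for each. Without WT 1, 3 of the 30 passed (10.0%, beside 9.40% of all genes), 1 higher and 2 lower in KO, among them *Map2k3* (-0.26, adjusted p = 0.0416).

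Of the feedback inhibitors of MAP kinases, 9 of 10 were tested, 8 with a higher and 1 with a lower mean in KO (median 0.07), and 0 passed. Over all 13312 genes tested, 5604 were higher and 7708 lower. *Dusp6*, a MAP kinase phosphatase whose mRNA follows the activity of the pathway, was at 34.2, 21.0 and 22.3 FPKM in WT and at 31.3, 31.8 and 30.2 FPKM in KO (adjusted p = 0.633). WT 1 was above all KO libraries and the other WT libraries below them. Without WT 1 it was the 1 gene of this list that passed (0.50, adjusted p = 0.0102), 11.1% of those tested beside 9.40% of all genes. *Dusp4* (101.2 to 136.0 FPKM) and *Dusp10* (18.2 to 22.2 FPKM) were the other abundant ones, and *Dusp7* (log2 fold change 0.32 ± 0.12, SE, adjusted p = 0.626) and *Dusp16* (-0.22 ± 0.16, SE, adjusted p = 0.662) had the other small p-values.

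Heat shock genes, like *Fos*, respond to handling and stress of cells. Of 9 tested, 1 had a higher and 8 a lower mean in KO (median -0.18), and 0 passed. Over all genes tested, 7708 of 13312 were lower. *Hspa8* (1250.5 to 1433.4 FPKM), *Hsp90aa1* (477.4 to 630.1 FPKM) and *Hspd1* (262.4 to 363.3 FPKM) were the most abundant. The stress-inducible *Hspa1b* was at 0.335, 3.15 and 2.03 FPKM in WT and at 0.428, 0.208 and 0.275 FPKM in KO (adjusted p = 0.626), so that it too was high in WT 2 and WT 3 alone. Without WT 1 it was the 1 gene of this list that passed (-1.45, adjusted p = 0.00964), 11.1% of those tested beside 9.40% of all genes. *Hspe1* was at 262.5 to 301.9 FPKM in WT and at 238.7 to 261.6 FPKM in KO (adjusted p = 0.626). The 8 proliferation genes, led by *Top2a*, *Pcna* and *Mcm2*, summed to 1313.2, 1622.0 and 1607.6 FPKM in WT and to 1489.1, 1372.9 and 1285.0 FPKM in KO, so WT 2 and WT 3 were highest here as well.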

How the data were processed

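Bulk RNA-seq of 3 WT and 3 *Hif1a* KO libraries was used. The authors discarded low-quality and adapter-containing reads, used TopHat for alignment to mm10 and HTSeq for counting, and deposited FPKM values, which they derived from each gene's count and length. The annotation release, strand option and gene lengths are not given in the sources used here. GENCODE vM21 (GRCm38) supplied symbols and gene coordinates and named 46488 of the 46983 gene IDs.

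The worth of 1 read was recovered from the FPKM values. Among the low values checked, 93.8% to 94.5% were whole reads within 0.01 read.

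Genes with a mean of at least 0.5 FPKM were tested in R 4.3.3 with limma 3.58.1 (moderated variances with a trend in the mean) on log2(FPKM + 1), without covariates, and p-values were adjusted by Benjamini-Hochberg over 13312 genes (threshold 0.05). The method was tested on simulated data. Family shares were compared by exact two-sided permutation tests. The sample labels gave the groups and replicate numbers. Tables were made and figures drawn with Python 3.11.15, pandas 2.3.3 and matplotlib 3.10.9.

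The members, gene lists and tests were chosen with earlier results of these data known. Besides the members, the genes named are, for each pathway list, the 3 tested genes with the highest mean FPKM and the 3 with the smallest unadjusted p, and for each marker list the 2 with the highest mean. Some single-gene values are not given. Others (*Hif1a*, *Cd79b*, *Lyz2*, *Prdx2*, *Junos*, *Gm11175*, *Nab2* without WT 1, genes listed at 0 and those of the library pattern) were chosen after their values were seen. Alternatives were a pseudocount of 0.1, no minimum or a minimum of 5 FPKM, median-ratio and quantile scaling, no trend, the replicate block, voom on the recovered reads and each library left out.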

Additional observations from a re-analysis of the deposited data

How the results depend on the processing

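With a pseudocount of 0.1, no minimum or a minimum mean of 5 FPKM, median-ratio or quantile scaling, eBayes without a trend, voom on the recovered reads or the replicate block, 0 genes and 0 members were called. Of these, only median-ratio scaling turned a direction, that of *Egr3* (0.0145). Over the libraries left out in turn, the number of genes called ran from 0 to 1251 (1251 without WT replicate 1, 1 without KO replicate 1), members called from 0 to 1, the members' median from -0.0431 (without WT replicate 3) to 0.304, and the log2 fold change of *Egr1* from 0.00952 (without KO replicate 1) to 0.544, *Egr2* from 0.199 to 0.555, *Jun* from 0.107 (without KO replicate 3) to 0.358, *Jund* from 0.156 (without WT replicate 3) to 0.469, *Fos* from -0.374 to 0.0728, *Egr3* from -0.0749 to 0.0407 and *Nr4a1* from -0.0431 to 0.304, so that *Fos*, *Egr3* and *Nr4a1* changed direction. *Fos* did so without WT replicate 1 or KO replicate 3, *Egr3* without WT replicate 1, KO replicate 1 or KO replicate 3, and *Nr4a1* without WT replicate 3. With WT replicate 1 as the only WT library, an alternative chosen after seeing the data, 3 genes and 0 members were called, the members' median was -0.132, and *Jun* (-0.0151), *Jund* (-0.132), *Egr1* (-0.366), *Egr2* (-0.085) and *Nr4a1* (-0.291) changed direction. The cause of these changes was not tested. The share difference ran from -9.99 to -4.17 points for *Junb* and from 3.89 to 9.18 points for *Jund* over the libraries left out. Over all genes tested, the deviations of same-numbered libraries from their group means correlated at -0.0987, 0.139 and -0.276. A pairing limited to some genes, such as those highest in WT 1 and KO 1, was not tested. With the replicate block the smallest adjusted p was 0.78.

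With 3 libraries per group, folds inside the intervals given were not excluded. *Fos*, *Fosl2* and *Fosb* rest on few reads, and levels between genes depend on lengths that are not stated.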
